A study of Mus musculus with 12 samples.

Results

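Inpp5d, Bin1, Picalm, Sorl1, Abca7, Spi1, Mef2c, Ptk2b, Abi3 and Cd2ap were followed in CD11b+ microglia, as 10 mouse genes of 55487 in the count table. They were listed by name because human genetics ties their loci to the risk of Alzheimer's disease (AD) and microglia express them. Earlier results of these data were known when the list was made. All 10 passed the filter on low counts that left 15425 genes to be tested. Cortices of male mice were digested with papain and the cells pulled out with magnetic beads, and each of the 12 libraries holds the RNA of 1 mouse, with 3 mice in each of 4 groups. WT mice were C57BL/6J. App NL-G-F mice, in the following App mice, carry a knock-in at the mouse App locus, with a humanised Aβ sequence and familial AD mutations, so App is under its own promoter in every cell. Mice of both genotypes received i.v. injections of either PBS, the vehicle (veh), or 10 mg/kg rh Bri2 BRICHOS R221E, a recombinant human chaperone domain with a point mutation. There were 24 injections over 12 weeks from 9 months of age, followed by 4 weeks without treatment.

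Microglia are the resident macrophages of the brain, and a large part of the inherited risk of late-onset AD lies in genes that these cells use. Some of the encoded proteins pass on or damp the signal of surface receptors that sense lipids and amyloid, others form the vesicles by which cargo is taken up and sorted, and others set the transcription programme of the cell. The human risk variants are mostly non-coding, and the mice carry none of them, so the data show levels of the mouse genes in the presence of amyloid and not the effect of a risk allele.

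Spi1 and Mef2c encode transcription factors that bind short DNA sequences, and the promoters of the listed genes were therefore searched for letter matches. RefSeq windows on GRCm38.p6, from 250 bases before to 50 after a transcription start, were matched for 6 of the 10 genes, with 9 windows in all: 1 each for Inpp5d, Picalm, Abca7 and Cd2ap, 2 for Sorl1 and 3 for Mef2c. The PU.1 core GAGGAA, searched on both strands, was found in 4 of these 9 windows, and in 28.3% of all 32851 windows of the same length. The MEF2 site, written as CTA, 4 bases that are A or T, and TAG, was found in 0 of the 9 windows and in 0.557% of all windows. The stretches before the start in which the PU.1 core was found are shown for the 3 genes that hold it, from 5′ to 3′ on the + strand, with the core in capitals. That of Inpp5d is chr1:87620062-87620311, that of Picalm is chr7:90129963-90130212, and that of the first start of Mef2c is chr13:83503784-83504033.
Inpp5d: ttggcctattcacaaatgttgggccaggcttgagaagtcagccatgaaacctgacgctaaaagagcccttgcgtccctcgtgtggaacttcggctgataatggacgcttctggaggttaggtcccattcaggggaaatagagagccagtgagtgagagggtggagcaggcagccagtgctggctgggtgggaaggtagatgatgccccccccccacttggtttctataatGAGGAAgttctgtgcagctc
Picalm: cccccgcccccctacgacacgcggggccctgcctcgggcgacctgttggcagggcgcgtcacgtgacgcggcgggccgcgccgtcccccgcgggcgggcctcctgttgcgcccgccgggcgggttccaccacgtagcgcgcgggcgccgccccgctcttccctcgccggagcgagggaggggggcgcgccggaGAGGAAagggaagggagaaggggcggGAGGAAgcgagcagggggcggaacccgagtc
Mef2c: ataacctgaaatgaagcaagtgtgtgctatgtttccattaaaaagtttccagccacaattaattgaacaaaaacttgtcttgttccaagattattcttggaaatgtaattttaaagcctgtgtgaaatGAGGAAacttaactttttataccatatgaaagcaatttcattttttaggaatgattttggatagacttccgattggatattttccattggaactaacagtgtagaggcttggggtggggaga
The core of Inpp5d shown begins 20 bases before the start, and a second match, on the − strand, covers bases 3 to 8 after it, outside the stretch shown. Those of Picalm begin 57 and 31 bases before the start, and that of Mef2c 122 bases before it. A second window of Mef2c, chr13:83523406-83523705, holds a core 186 bases before its start. The windows of Sorl1, Abca7 and Cd2ap hold no match. These are matches of letters in a fixed window, and binding was not measured.

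Between 12433402 and 17889654 counts were assigned to genes per library, and the listed genes had between 911 and 17213 counts in any library, far above the 3 counts, or 0.169 to 0.227 CPM (counts relative to library size, as defined below), taken as the lowest detectable level. The 10 microglia markers were at a sum of 29259 to 34154 CPM with none at 0 in any library. Single markers did differ between veh-treated App and WT mice. At an adjusted p-value under 0.05, 3 were called as higher and 6 as lower in App mice, with a median log2 fold change of −0.32. Of all tested genes 20.1% were called as higher and 16.9% as lower. RNA of other cells was present and differed between genotypes. Astrocyte markers summed to 544 to 785 CPM in veh-treated WT and 1498 to 4630 CPM in veh-treated App mice, with 9 of 10 called as higher and none at 0. Oligodendrocyte markers summed to 9837 to 17174 CPM and 3350 to 5779 CPM in the same groups, with 2 of 9 lower and none at 0. Border macrophage markers summed to 389 to 460 CPM and 167 to 224 CPM, with 6 of 6 called as lower, and neuron markers were at or under 83.3 CPM in every library. In bulk RNA, fewer cells of a type and less RNA per cell cannot be told apart.

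Levels are CPM, the edgeR measure of a gene's count relative to the total of its library, with the library sizes scaled by TMM, a method that takes most genes as unchanged between libraries. Levels of different genes were compared as CPM per kb of annotated exon. In veh-treated WT mice Bin1 was the highest at 186 CPM per kb and Inpp5d followed at 135 ± 1.82 (SD, n = 3). Spi1 was at 109 CPM per kb, Abi3 at 91.3, Picalm at 59.1, Mef2c at 26.5 and Ptk2b at 25.4. Cd2ap at 10.97, Abca7 at 10.7 and Sorl1 at 10.1 CPM per kb came last, and each of these 3 overlapped its neighbour in the order. All other neighbours were separated in their 3 libraries, Mef2c and Ptk2b only by 26.0 against 25.8 CPM per kb. When the longest transcript was taken as the length, Picalm stood above Abi3, and Cd2ap, at 31.0 against 10.8 for Abca7, no longer lay close to it.

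The first question was which of these genes differ between App and WT mice. In veh-treated mice 7 of the 10 differed at an adjusted p-value under 0.05, with 3 higher (Sorl1, Mef2c, Ptk2b) and 4 lower (Inpp5d, Bin1, Abi3, Cd2ap), where 37% of all tested genes were called, 20.1% as higher and 16.9% as lower. The sizes were small. The 10 log2 fold changes lay between −0.52 and 0.32, the median of their absolute values was 0.25, and that of all tested genes was 0.32. The groups did not overlap for 9 of the 10 genes, against 50.9% of all genes. The 10 genes had 911 counts or more in every library. The shares of all genes, here and below, include genes near the minimum count of 10 and are not matched for level. The scale matters for the direction. When libraries were scaled to their total count, an alternative chosen after seeing the data, the median log2 fold change of all genes was −0.21 in place of −0.022, and the calls over all genes went from 3099 higher and 2611 lower to 2004 higher (13%) and 5198 lower (33.7%), 46.7% in all. All 4 genes that fell remained called as lower on that scale, Mef2c remained higher at 0.13 (adjusted p = 0.0448), Sorl1 lost its call at 0.066 (adjusted p = 0.546), and Ptk2b was at −0.058 (adjusted p = 0.283). Relative to the shifted median these 3 were at 0.34, 0.28 and 0.15.

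**Figure D1:**
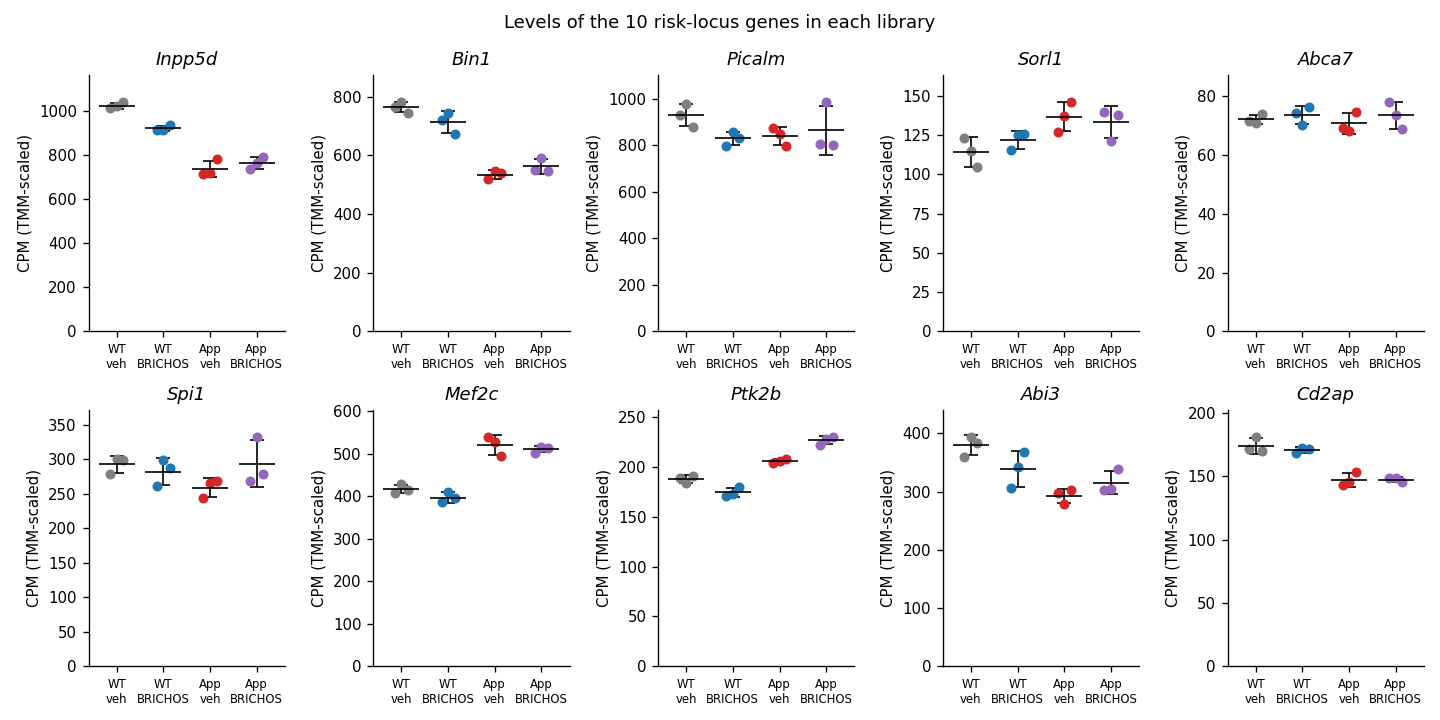
TMM-scaled CPM of each of the 10 genes (vertical axes from 0) in the 3 libraries of each group, as points in replicate order, with the group mean and SD as bars. Inpp5d, Bin1 and Cd2ap lie lower in both groups of App mice than in both groups of WT mice, Mef2c and Ptk2b lie higher on this scale (with total count scaling Ptk2b in veh-treated mice is at −0.058), and Abca7 lies between 68.3 and 78.0 CPM throughout.

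Inpp5d and Ptk2b act in signalling. Inpp5d (ENSMUSG00000026288, GRCm38 chr1:87620312-87720507, + strand) encodes SHIP1, a phosphatase that removes a phosphate from the lipid messenger of PI3K and damps signals from immune receptors. Its level was 1012, 1021 and 1039 CPM in the veh-treated WT mice and 713, 717 and 781 CPM in the veh-treated App mice. With rh Bri2 BRICHOS R221E it was 915, 914 and 935 CPM in WT and 737, 763 and 793 CPM in App mice. Every App library lay under every WT library. The log2 fold change was −0.47 ± 0.052 (SE) in veh-treated mice (adjusted p = 2.86e-05), 0.720 times the WT level, and −0.27 in treated mice (adjusted p = 0.00154).

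Ptk2b (ENSMUSG00000059456, chr14:66153257-66281052, − strand) encodes PYK2, a tyrosine kinase related to focal adhesion kinase that responds to calcium and integrins. It was at 189, 184 and 191 CPM in veh-treated WT mice and at 204, 206 and 208 CPM in veh-treated App mice. The treated WT mice had 170, 173 and 180 CPM and the treated App mice 223, 228 and 230 CPM. The 4 groups did not overlap one another: the treated WT mice were the lowest and the treated App mice the highest. The difference between genotypes was 0.13 ± 0.040 (adjusted p = 0.021) on the log2 scale with veh. It was 0.38 (adjusted p = 1.81e-05) with rh Bri2 BRICHOS R221E. With total count scaling these became −0.058 and 0.11 (adjusted p = 0.0504), relative to all-gene medians of −0.21 and −0.31. The call in veh-treated mice was lost without WT veh replicate 2 (adjusted p = 0.0796) or any one of the 3 App veh libraries (adjusted p = 0.0534 to 0.0569), without the filter on low counts (adjusted p = 0.182), and with the oligodendrocyte marker score as a covariate, an alternative chosen after seeing the data (0.10, adjusted p = 0.105).

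Bin1, Picalm, Sorl1 and Cd2ap act in uptake and sorting. Bin1 (ENSMUSG00000024381, chr18:32377230-32435737, + strand) encodes amphiphysin 2, which bends membranes. It had 766, 781 and 746 CPM in veh-treated WT mice and 518, 546 and 540 CPM in veh-treated App mice. Treated WT mice had 720, 746 and 674 CPM and treated App mice 549, 592 and 546 CPM. The genotypes did not overlap with either treatment. The log2 fold change of −0.52 ± 0.055 (adjusted p = 2.23e-05) with veh was the largest fall among the 10 genes, and it was −0.34 (adjusted p = 0.000425) with rh Bri2 BRICHOS R221E. With the oligodendrocyte marker score as a covariate, chosen after seeing the data, these were −0.50 (adjusted p = 0.000134) and −0.33 (adjusted p = 0.000783). Oligodendrocyte marker sums were also lower in veh-treated App mice, and the part of these cells in the Bin1 values was not tested further.

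Cd2ap (ENSMUSG00000061665, chr17:42792951-42876665, − strand) encodes an adaptor that links endocytosis to the actin skeleton. Its level was 172, 181 and 170 CPM in veh-treated WT mice against 143, 145 and 153 CPM in veh-treated App mice. In treated mice it was 168, 172 and 171 CPM for WT and 148, 149 and 145 CPM for App. Both WT groups lay above both App groups. The log2 fold changes were −0.24 ± 0.043 (adjusted p = 0.00113) and −0.21 (adjusted p = 0.00221).

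Sorl1 (ENSMUSG00000049313, chr9:41964720-42124297, − strand) encodes a receptor that returns cargo, APP among it, from endosomes. It was at 124, 115 and 104 CPM in veh-treated WT mice and at 127, 137 and 146 CPM in veh-treated App mice. These groups were separated by a narrow gap, and the treated groups, with 116, 125 and 126 CPM in WT and 140, 122 and 138 CPM in App mice, overlapped. The log2 fold change was 0.26 ± 0.078 (adjusted p = 0.0223) with veh, and 0.066 (adjusted p = 0.546) with total count scaling. It was 0.13 (adjusted p = 0.218) with rh Bri2 BRICHOS R221E. The veh call was lost without replicate 2 or 3 of either group, with adjusted p = 0.0546 to 0.0887.

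Picalm (ENSMUSG00000039361, chr7:90130213-90213465, + strand), an adaptor that brings clathrin to the membrane, had 932, 977 and 881 CPM in veh-treated WT and 875, 848 and 800 CPM in veh-treated App mice. The treated mice had 800, 857 and 834 CPM in WT and 807, 986 and 801 CPM in App. Replicate 2 of the last group stood above all other treated mice. No difference passed the test, with −0.15 ± 0.081 (adjusted p = 0.181, 95% CI −0.32 to 0.032) with veh and 0.059 (adjusted p = 0.587, 95% CI −0.12 to 0.24) with rh Bri2 BRICHOS R221E. With total count scaling the values were −0.34 and −0.22, with adjusted p = 0.00208 and 0.0192, so on that scale Picalm was called as lower in both. Relative to the all-gene medians of −0.21 and −0.31 it was at −0.12 and 0.097. Within its span 4 other gene models lie on the same strand, with up to 248 counts.

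Abca7 (ENSMUSG00000035722, chr10:79996494-80015572, + strand) encodes a transporter that moves phospholipids across membranes. It was at 71.6, 70.9 and 73.9 CPM in veh-treated WT mice and at 69.2, 68.3 and 74.8 CPM in veh-treated App mice. The treated groups had 74.3, 70.3 and 76.2 CPM and 78.0, 73.8 and 68.8 CPM, in the same order of genotypes. All 4 groups overlapped, and Abca7 was the only one of the 10 genes whose veh-treated groups did so. The log2 fold changes between genotypes were −0.028 (adjusted p = 0.734, 95% CI −0.16 to 0.10) and −0.0019 (adjusted p = 0.983, 95% CI −0.13 to 0.13), and −0.22 and −0.27 with total count scaling. Both were called as lower on that scale, on which the median of all genes was at −0.21 and −0.31, and relative to these medians Abca7 was at −0.0068 and 0.040.

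Spi1 and Mef2c encode transcription factors of the microglial programme. Spi1 (ENSMUSG00000002111, chr2:91082390-91115756, + strand), which encodes PU.1, had 279, 301 and 299 CPM in veh-treated WT mice and 243, 265 and 268 CPM in veh-treated App mice. The treated mice had 262, 299 and 287 CPM in WT and 269, 332 and 279 CPM in App. The veh-treated groups were separated by a narrow gap and the treated groups overlapped. The log2 fold change with veh was −0.18 ± 0.082 (adjusted p = 0.109), and it passed the threshold when the fit held only the compared groups (adjusted p = 0.0405), with the replicate block (adjusted p = 0.026), with a score of other cell types (adjusted p = 0.016) or of oligodendrocytes (−0.27, adjusted p = 0.0266) as a covariate, and with total count scaling (−0.37, adjusted p = 0.000941). In treated mice it was 0.056 (adjusted p = 0.611), and −0.22 (adjusted p = 0.0156) with total count scaling. Relative to the all-gene medians on that scale Spi1 was at −0.16 and 0.094.

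Mef2c (ENSMUSG00000005583, chr13:83504034-83667080, + strand) encodes a factor that restrains microglial inflammatory responses and that neurons also use. It was at 408, 428 and 415 CPM in veh-treated WT mice and at 539, 528 and 495 CPM in veh-treated App mice. Treated WT mice had 386, 409 and 394 CPM and treated App mice 502, 515 and 514 CPM. The genotypes were far apart with either treatment. The log2 fold changes were 0.32 ± 0.048 (adjusted p = 0.000308) and 0.36 (adjusted p = 0.000102), and with total count scaling 0.13 (adjusted p = 0.0448) and 0.093 (adjusted p = 0.117). Neuron markers summed to 50.5 to 67.2 CPM in veh-treated WT and 37.8 to 53.4 CPM in veh-treated App mice. The part of neurons or other cells in the Mef2c values was not tested.

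Abi3 (ENSMUSG00000018381, chr11:95830074-95842476, − strand) encodes a subunit that can enter the WAVE complex, which starts branched actin. It was at 360, 393 and 384 CPM in veh-treated WT mice and at 298, 279 and 302 CPM in veh-treated App mice. With rh Bri2 BRICHOS R221E the levels were 306, 343 and 368 CPM in WT and 303, 304 and 339 CPM in App mice. The veh-treated groups were apart and the treated groups overlapped. The log2 fold change was −0.37 ± 0.073 (adjusted p = 0.00197) with veh and −0.10 (adjusted p = 0.275) with rh Bri2 BRICHOS R221E, the latter −0.37 (adjusted p = 0.00122) with total count scaling, which is −0.060 relative to the median of all genes. Its span overlaps Gngt2, Phospho1 and Zfp652 on the opposite strand. Zfp652 had up to 4154 counts and a log2 fold change of −0.32 (adjusted p = 0.000511), and since the strand setting of the counting is not given, reads of the overlapping parts cannot be told apart.

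In the rh Bri2 BRICHOS R221E-treated mice 5 of the 10 genes differed between genotypes, with Mef2c and Ptk2b higher and Inpp5d, Bin1 and Cd2ap lower, where 42.5% of all tested genes were called, 20.8% as higher and 21.8% as lower. The groups did not overlap for 5 of the 10, against 51.7% of all genes. With total count scaling the calls over all genes went from 3202 higher and 3358 lower to 1590 (10.3%) and 7008 (45.4%), 55.7% in all, and 7 of the 10 genes were called, all as lower, while Mef2c and Ptk2b stayed positive but uncalled. With the mean log2 CPM of astrocyte, neuron, oligodendrocyte and endothelium markers as a covariate, 8 of the 10 were called in veh-treated and 5 in treated mice, and Inpp5d was at −0.49 and −0.34, Bin1 at −0.52 and −0.36, and Mef2c at 0.32 and 0.37. In veh-treated App mice astrocyte markers were mostly higher and those of the other types mostly lower, so these differences partly cancel in the mean. The centred score was at −0.064 to 0.47 in veh-treated WT and −0.21 to 0.21 in veh-treated App mice. It therefore cannot adjust for the RNA of each cell type.

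**Figure D2:**
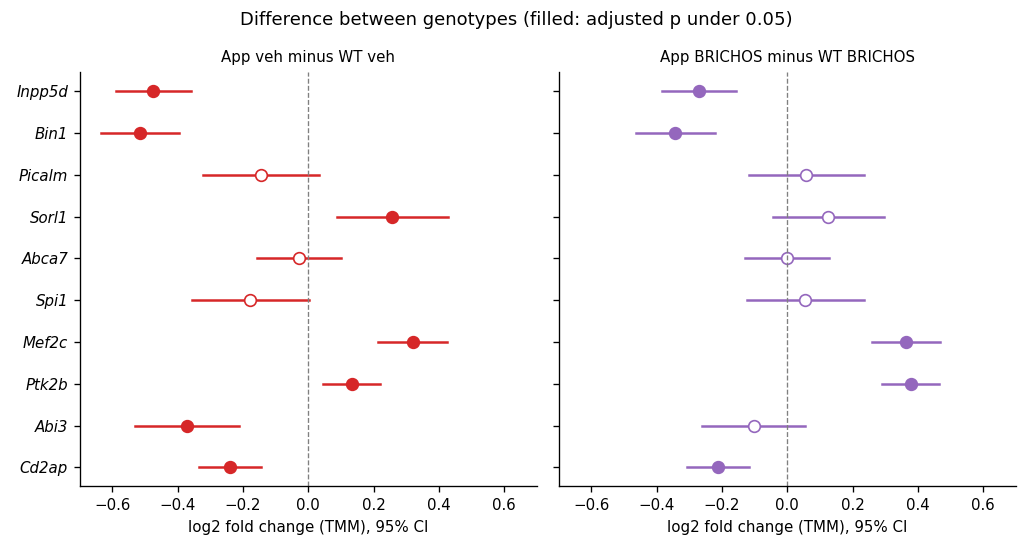
Log2 fold change of App over WT mice (horizontal axes, TMM scale) for each of the 10 genes with its 95% CI, in veh-treated mice on the left and rh Bri2 BRICHOS R221E-treated mice on the right, with filled points for an adjusted p-value under 0.05. In veh-treated mice 7 points are filled and in treated mice 5. With total count scaling Ptk2b with veh and Sorl1 and Picalm with rh Bri2 BRICHOS R221E change sign, as does Spi1 in treated mice.

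The second question was whether rh Bri2 BRICHOS R221E changed the level of these genes. In App mice 0 of the 10 passed the test by edgeR, which called 0.00648% of all genes (1 gene), and 0 by DESeq2, which called 0.851% (116 genes, 111 of them lower). At an unadjusted p-value under 0.05 there were 2, against 10.8% of all genes: Ptk2b with a log2 fold change of 0.14 (adjusted p = 0.294, 95% CI 0.050 to 0.22) and Spi1 with 0.18 (adjusted p = 0.453, 95% CI 0.0020 to 0.36). All 3 treated mice were above all 3 veh-treated mice for both, for Spi1 only by 269 against 268 CPM. The groups did not overlap for 4 of the 10, which are these with Bin1 and Abi3, against 13.5% of all genes. For Spi1 replicate 2 of the treated mice was far above the other two, and with the score of other cell types as a covariate the value was 0.035 (adjusted p = 0.982). That library had the lowest such score of its group, and the part of other cells was not tested further. Of the 10 log2 fold changes 8 were positive, and every 95% CI lay between −0.21 and 0.36.

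In WT mice 0 of the 10 passed by edgeR, which called 0% of all genes, and 0 by DESeq2, which called 0.519% (80 genes). Here 3 reached an unadjusted p-value under 0.05, against 11.4% of all genes, and all 3 were lower with treatment. Inpp5d was at −0.15 (adjusted p = 0.309, 95% CI −0.27 to −0.039), Ptk2b at −0.11 (adjusted p = 0.341) and Abi3 at −0.16 (adjusted p = 0.428). The groups did not overlap for 3 of the 10, Inpp5d, Picalm and Ptk2b, against 17.5% of all genes. Of the 10 values 8 were negative.

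The difference between the treatment effects of the genotypes was tested in the same fit. By edgeR 0 of the 10 passed, where 0.00648% of all genes were called, and 4 reached an unadjusted p-value under 0.05, against 14.8% of all genes. Ptk2b was at 0.25 ± 0.056 (adjusted p = 0.156), Inpp5d at 0.20 (adjusted p = 0.243), Abi3 at 0.27 (adjusted p = 0.262) and Bin1 at 0.17 (adjusted p = 0.331). DESeq2's Wald test called 1.58% of all genes (239 genes, 212 of them lower), and 1 of the 10, Ptk2b at 0.26 with adjusted p = 0.0145, and over the other alternatives its adjusted p-value went up to 0.342. Ptk2b was higher in 3 of 3 treated App mice than in all veh-treated ones and lower in 3 of 3 treated WT mice, and its call depends on the tool.

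**Figure D3:**
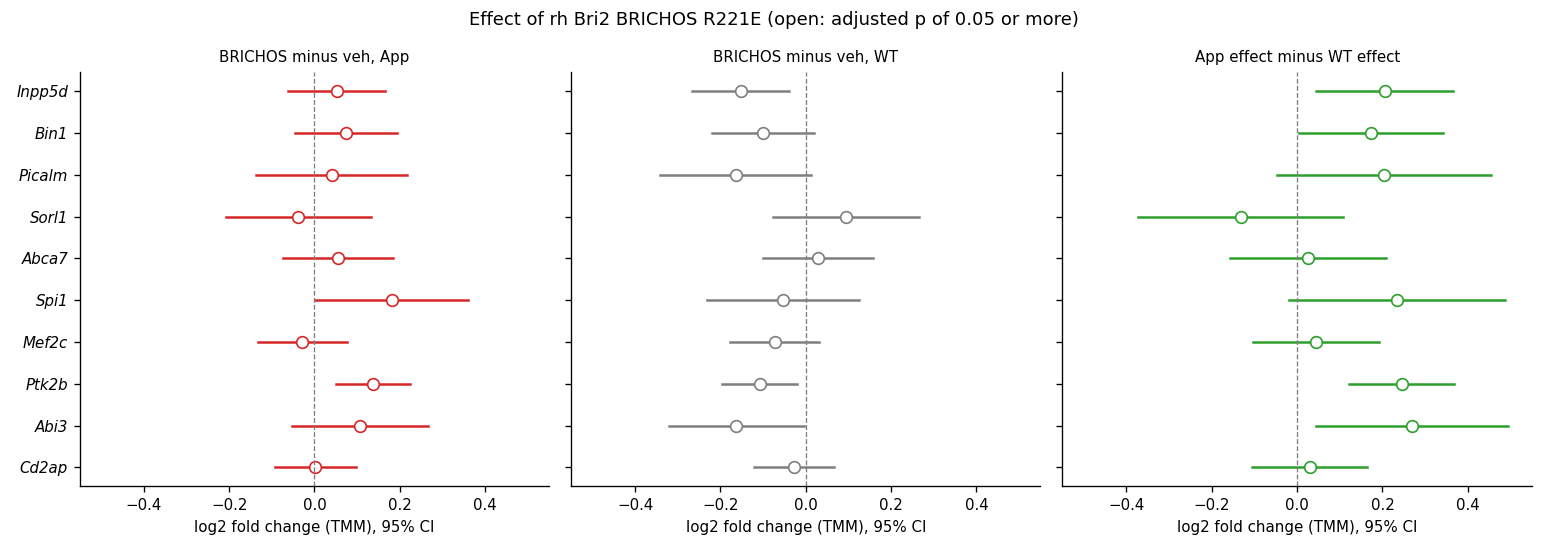
Log2 fold changes of the 10 genes (horizontal axes, TMM scale) with 95% CI for rh Bri2 BRICHOS R221E over veh in App mice (left), in WT mice (middle) and for the difference of these 2 effects (right). All points are open, since no adjusted p-value was under 0.05 with edgeR; in the right panel the interval of Ptk2b lies farthest from 0, at 0.12 to 0.37.

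The listed genes belong to small families, and 18 of 20 relatives were tested (Spib and Mef2b were too low). The relatives were chosen with earlier results of these data known, so their share of calls is a description only. Of these 5 were higher and 5 lower in veh-treated App mice (55.6%, against 37% of all genes), and 3 and 8 with total count scaling (61.1%, against 46.7%). Inppl1, which encodes the related phosphatase SHIP2, was at 0.57 (adjusted p = 4.13e-05) where Inpp5d fell, and its level of 16.2 CPM per kb in veh-treated WT mice was far under that of Inpp5d. Bin2, a BAR protein of blood cells, had 205 CPM per kb and fell by 0.69 on the log2 scale (adjusted p = 4.74e-06), while Bin3 was at 0.42 (adjusted p = 0.00537; with total count scaling 0.23, adjusted p = 0.0575). Sort1, which encodes the sorting receptor sortilin, was at 60.3 CPM per kb, above Sorl1, and was lower at −0.34 (adjusted p = 0.0131).

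Among the MEF2 factors Mef2a fell by 0.44 (adjusted p = 5.2e-05) and Mef2d was at 0.29 (adjusted p = 0.000199; with total count scaling 0.096, adjusted p = 0.0734). Mef2a was the most abundant of the 3 at 41.0 CPM per kb in veh-treated WT mice, before Mef2d at 31.2 and Mef2c at 26.5. Per kb of the longest transcript Mef2a was at 109, Mef2c at 66.4 and Mef2d at 34.6, so the order of Mef2c and Mef2d depends on the length. Abca1, a cholesterol exporter, fell by 0.32 (adjusted p = 0.00295). Abi2 was higher by 0.54 (adjusted p = 8.66e-05) at only 3.80 CPM per kb in veh-treated WT mice, and Abi1, the most abundant alternative to Abi3 in the WAVE complex at 39.4 CPM per kb, was at 0.063 (adjusted p = 0.354). Sorcs2 (2.04, adjusted p = 0.0127) and Sorcs3 (−2.40, adjusted p = 0.00844) were called at levels of at most 12.95 CPM, and the groups of Sorcs3 overlapped.

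**Figure D4:**
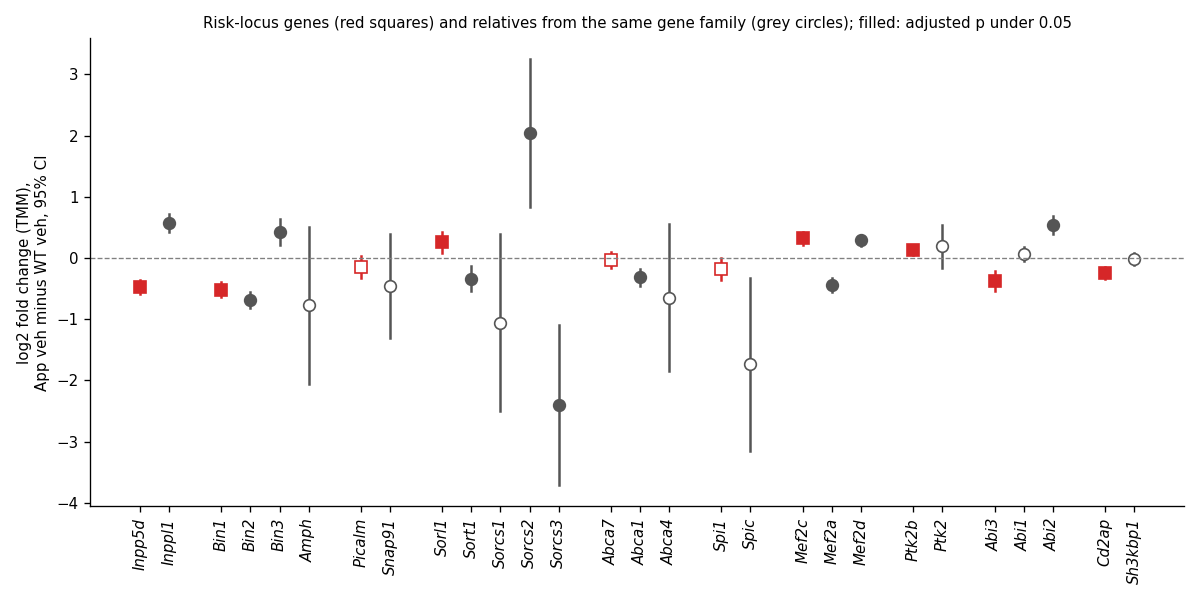
Log2 fold change of veh-treated App over WT mice (vertical axis, TMM scale, 95% CI) for the 10 genes as red squares, each followed by its tested relatives as grey circles, filled for an adjusted p-value under 0.05. Inpp5d and Inppl1, Abi3 and Abi2, and Mef2c and Mef2a lie on opposite sides of 0; Bin1 and Bin2 lie on the same side.

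Further lists gave the partners of these proteins, and each is described by its calls in veh-treated App over WT mice beside those with total count scaling. These lists too were chosen with earlier results of these data known, so a share above that of all genes is no test. Of all tested genes 20.1% were higher and 16.9% lower, and 13% and 33.7% with total count scaling. Of 39 tested genes of phosphoinositide and ITAM signalling, the pathway of Inpp5d, 7 were higher and 19 lower (66.7% called, against 37% of all genes) and 5 and 24 with total count scaling (74.4%, against 46.7%), with a median log2 fold change of −0.22. The kinase Syk, which acts right after the receptors, was lower at −0.49 (adjusted p = 7.42e-06), as was the inhibitory adaptor Dok3 at −1.60. Fgr, another SRC family kinase, rose by 2.29 (adjusted p = 3.59e-08), with Fyn at 1.20.

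Of 41 clathrin endocytosis genes, around Picalm and Bin1, 9 were higher and 10 lower (46.3%, against 37% of all genes), and 3 and 25 with total count scaling (68.3%, against 46.7%). Clathrin light chain Clta was at 0.61 (adjusted p = 2.58e-05) and dynamin Dnm2, which cuts vesicles off, at −0.33 (adjusted p = 3.85e-05). The AP-2 subunits went apart, with Ap2a2 at −0.25 (adjusted p = 0.00154) and Ap2a1 at 0.30 (adjusted p = 0.00197; 0.10 and adjusted p = 0.193 with total count scaling). Fcho1 was at 0.97 and Snx18 at −0.24. Of 24 genes of retromer and endosomal sorting, around Sorl1, 9 were higher and 4 lower (54.2% called), and 5 and 12 with total count scaling (70.8%), so the balance turned. Rab7, which marks late endosomes, was at 0.40 (adjusted p = 3.63e-05), the retromer subunit Vps29 at 0.40 and Gga2 at 0.80, while Snx6 was at −0.40, Ap1b1 at −0.31 and Washc4 at −0.22.

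Of 33 genes of actin and the WAVE complex, around Abi3 and Cd2ap, 6 were higher and 8 lower (42.4%, near the 37% of all genes), and 4 and 17 with total count scaling (63.6%). Elmo1, which turns on RAC for engulfment, fell by 0.95 (adjusted p = 5.86e-08), and Pxn and Fermt3, of integrin adhesions, were at −0.58 and −0.41. The ARP2/3 subunits Arpc5 and Arpc1b were at 0.50 (adjusted p = 5.69e-05) and 0.53 (adjusted p = 0.00061), and Vcl at 0.74. Of 18 ABC transporters and related genes, around Abca7, 4 were higher and 4 lower (44.4%), and 2 and 6 with total count scaling (44.4%), with the peroxisomal Abcd2 at 0.90. The chaperone Calr was at 0.67, Abca5 at 0.63 (0.44, adjusted p = 0.0939 with total count scaling), Abcb4 at −0.67 and Abcb1a at −0.83.

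A list of 23 genes around PU.1, chosen like the others with earlier results known, held its partners and targets and also growth factors such as Csf1. Of these 9 were higher and 9 lower (78.3%, against 37% of all genes), and 8 and 9 with total count scaling (73.9%, against 46.7%). The growth factor Csf1 went from 144 ± 14.4 to 1853 ± 200.1 CPM (SD, n = 3), a log2 fold change of 3.69 (adjusted p = 1.17e-08). Its receptor Csf1r fell by 0.37 (adjusted p = 0.000891). Lyz2 (1.72) and Csf2ra (1.22) were higher, and Tlr4 (−0.65) and Irf4 (−1.64), a factor that binds DNA with PU.1, were lower. Of 40 tested genes at other AD risk loci, from a list of 45, 11 were higher and 10 lower (52.5%), and 10 and 16 with total count scaling (65%). Apoe, the main lipid carrier of the brain, had 1775 ± 156 CPM in veh-treated WT and 20020 ± 1251 CPM in veh-treated App mice (log2 fold change 3.50, adjusted p = 2.21e-09). The lipid receptor Trem2 rose by 1.46 (adjusted p = 8.3e-08) and the protease Ctsb by 1.68, while the inhibitory receptor Cd33 was at −0.76 (adjusted p = 7.12e-07), Cass4 at −1.54 and Usp6nl at −0.61. No gene of any of these lists was called for rh Bri2 BRICHOS R221E in either genotype or for the difference of its effects by edgeR. At an unadjusted p-value under 0.05 there were 2 to 5 genes a list in App mice, 0 to 13 in WT mice and 2 to 10 for the difference. The lists held 18 to 41 tested genes, and 10.8%, 11.4% and 14.8% of all genes reached this threshold. In WT mice it was reached by 0 of 18 relatives, 9 of 41 clathrin endocytosis genes and 13 of 40 genes at other AD risk loci. DESeq2's Wald test called 1 gene in each of 2, 3 and 2 lists, against 0.851%, 0.519% and 1.58% of all genes.

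At the mouse loci, 95 tested genes lay within 250 kb of one of the 10, and 37 (38.9%) of these were called in veh-treated App over WT mice, 17 as higher and 20 as lower, near the 37% of all genes, and 11 and 38 with total count scaling (51.6%, against 46.7%). Neighbours, called or not, often had a larger absolute log2 fold change than the listed gene, 26 of 31 at Abca7 and 0 of 1 at Cd2ap. The median absolute value of the 10 genes (0.25) was under that of all tested genes (0.32). How often this holds around other genes was not tested. At Ptk2b, Clu (171710 bases away), which encodes the chaperone clusterin and is itself an AD risk gene, went from 148 to 616 CPM (log2 fold change 2.06, adjusted p = 0.00265), and Ephx2 (2.20) and Scara3 (1.82) rose as well. In App mice these 3 were at −1.34, −1.32 and −1.34 with rh Bri2 BRICHOS R221E, which was not called. Astrocyte marker sums were 1498 to 4630 CPM in veh-treated and 739 to 1982 CPM in treated App mice, and the part of these cells in the values was not tested.

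Next to Abca7, which did not pass the test, Cnn2 lies 432 bases away and fell by 1.37 (adjusted p = 7.86e-06), and Arhgap45, 1081 bases away, was at −0.43 (adjusted p = 7.2e-05). At Inpp5d, Ngef, 46442 bases away, went from 3.67 to 13.3 CPM (1.86, adjusted p = 0.0155). At Spi1, Rapsn was at −1.06 (adjusted p = 0.000185). The remaining neighbours called with an absolute log2 fold change over 1, Fgf22, 1600002K03Rik and Kiss1r at Abca7 and C1qtnf4 at Spi1, had means under 7.13 CPM or at it.

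**Figure D5:**
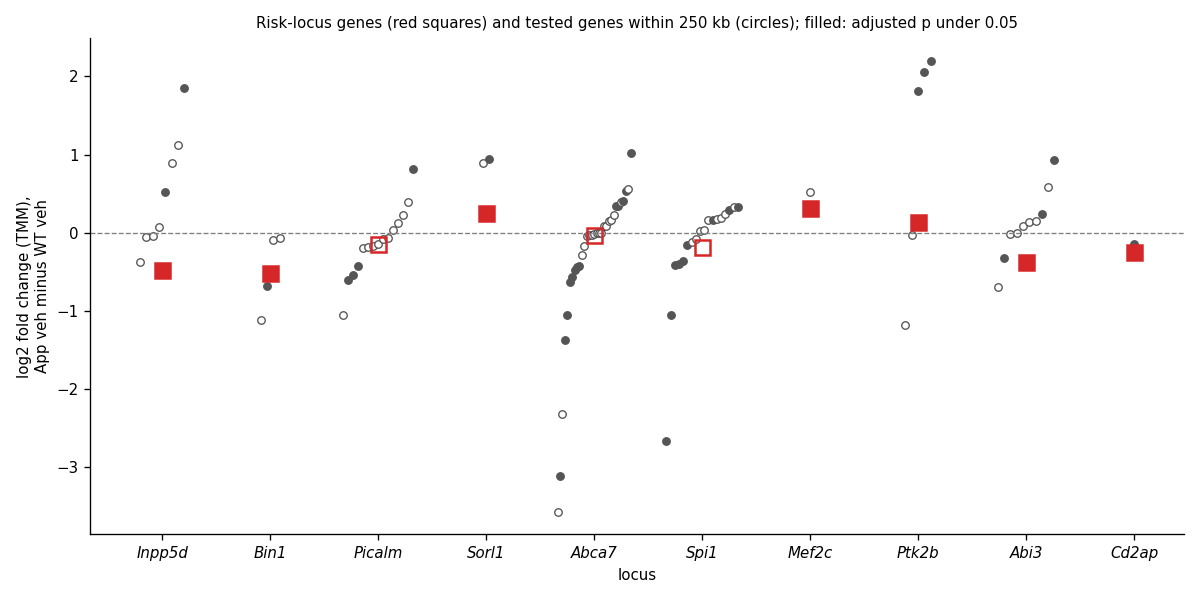
Log2 fold change of veh-treated App over WT mice (vertical axis, TMM scale) for the 10 genes as red squares and for the 95 tested genes within 250 kb as circles, by locus along the horizontal axis, with filled symbols for an adjusted p-value under 0.05. At Ptk2b 3 neighbours lie between 1.82 and 2.20, far above Ptk2b at 0.13, which with total count scaling is at −0.058.

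For each of the 10 genes the 2 genes with the most similar log2 CPM over the 12 libraries were looked up, with Pearson's r as a description. The 12 points share the group differences and the library scaling. Inpp5d was most like Tspan14 (r = 0.989), which lies at another AD risk locus, and Tgfbr1 (0.988), a receptor of the TGF-β that microglia need. Bin1 was most like Pip4k2a (0.988) and Rock2 (0.985), and Cd2ap like B4galt4 (0.987) and Grk2 (0.987). Abi3 was most like Tnfaip8l2 (0.985) and Fbxl14 (0.963), Mef2c like Ptdss1 (0.985) and Canx (0.985), and Ptk2b like Mef2d (0.969) and Pcyt1a (0.968). Sorl1 was closest to Gpr153 (0.936) and Cmc2 (0.909), Picalm to Tmem128 (0.931) and Bach1 (0.907), Spi1 to Aif1 (0.917), which encodes Iba1, and Borcs6 (0.917), and Abca7 to Qsox2 (0.866) and Fam221a (0.861). After the group means were taken out, r was 0.925 for Inpp5d and Tspan14, 0.957 for Abi3 and Tnfaip8l2 and 0.935 for Spi1 and Aif1, but 0.512 for Ptk2b and Mef2d and 0.0052 for Ptk2b and Pcyt1a.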

How the data were processed

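RNA of CD11b+ microglia was sequenced from 12 mice. Reads were trimmed (Cutadapt), aligned to GRCm38 (STAR) and assigned to genes (featureCounts) by the authors. The deposited values are raw counts. The strand setting and the handling of reads shared between genes are not given in the sources used here. Of 55487 genes 55227 were matched to a symbol in GENCODE and 26314 had no count. Each library was assigned by its name.

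Genes were kept by filterByExpr with a minimum count of 10 in edgeR 4.0.16 (R 4.3.3). TMM factors and 1 quasi-likelihood fit of 4 group means gave log2 fold changes and 95% CI, with p-values adjusted after Benjamini and Hochberg over 15425 genes and a threshold of 0.05. The p-values test differences between group means against the spread of mice within groups. That spread was estimated from all 4 groups and moderated over genes. DESeq2 1.42.0 was an alternative. Log2 CPM used a prior count of 2, and likeness is Pearson's r of these values.

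The genes named are all 10 members, their relatives, the 3 genes with the lowest p-value in each direction from each other list, and called neighbours with an absolute log2 fold change over 1. A few genes that this rule names are not reported here. Arhgap45 and Zfp652 were added after their values were seen. The members and lists were chosen with earlier results of these data known. Libraries of a group share the numbers 1 to 3 with other groups, but deviations of equally numbered libraries correlated at −0.015 to 0.23, so they were not treated as pairs. No 2 libraries of a group agreed within sampling noise (chi-square per degree of freedom 5.39 to 31.0). The tests were checked on simulated data. Proteins and promoters outside the RefSeq table were not used here.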

Additional observations from a re-analysis of the deposited data

How the results depend on the processing

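Alternatives were the size factors or the Wald test of DESeq2, no filter on low counts, at least 10 counts in every library, only the compared groups in the fit, the replicate block, a score of astrocyte, neuron, oligodendrocyte and endothelium markers as covariate, a cutoff on the log2 fold change, the omission of each library and, chosen after seeing the data, total count scaling and an oligodendrocyte score. The members called between genotypes were 5 to 7 of 10 in veh-treated and 5 in treated mice when a library was left out, and 0 in both for an absolute log2 fold change over 1. With the replicate block 8 and 5 were called, Spi1 being the one gained (adjusted p = 0.026), and treatment and interaction gave 0. The interaction gave 1 with DESeq2's Wald test. With the log2 cutoff the called genes were 2 relatives, 1 of clathrin endocytosis, 1 of retromer, 4 of phosphoinositide signalling, 0 of actin, 7 around PU.1, 0 transporters, 7 at other risk loci and 10 neighbours. Per kb of the longest transcript the levels in veh-treated WT mice were 207 for Inpp5d, 285 for Bin1, 113 for Picalm, 144 for Spi1, 66.4 for Mef2c, 46.6 for Ptk2b and 31.0 for Cd2ap, since that length is shorter than all exons together.

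The direction of small differences turned. With total count scaling Ptk2b between veh-treated genotypes was at −0.058. Between treated genotypes Picalm was at −0.22, Sorl1 at −0.14 and Spi1 at −0.22, but relative to the median of all genes on that scale, −0.31, at 0.097, 0.17 and 0.094. Relative to its median Ptk2b was at 0.15. For rh Bri2 BRICHOS R221E in App mice Picalm was at −0.012 and Cd2ap at −0.047, and in WT mice Cd2ap was at 0.0043. In the interaction Abca7 was at −0.053, Mef2c at −0.036 and Cd2ap at −0.051. With the score of 4 cell types Picalm was at −0.028 and Spi1 at −0.13 between treated genotypes, and for the treatment in App mice Picalm was at −0.027, Sorl1 at 0.035 and Cd2ap at −0.010. Abca7 between treated genotypes was at 0.018 with DESeq2's size factors, 0.019 with its Wald test, 0.0075 without the filter, 0.0050 with the compared groups and 0.00091 with the oligodendrocyte score. With at least 10 counts in every library Cd2ap for the treatment in App mice was at −0.0063 and Abca7 in the interaction at −0.00018. The cause of these changes was not tested.

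Without 1 library the differences of treated genotypes went from −0.042 to 0.12 for Picalm, −0.043 to 0.048 for Abca7 and −0.039 to 0.12 for Spi1. The treatment effect in App mice went from −0.056 to 0.093 for Picalm, −0.075 to 0.031 for Sorl1, −0.063 to 0.013 for Mef2c and −0.0084 to 0.033 for Cd2ap, and the interaction of Abca7 from −0.014 to 0.076. Among these omissions the values of Picalm in both comparisons and of Spi1 turned only without App BRICHOS replicate 2. With 3 mice in a group the precision is set by their spread.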
